A study of Arabidopsis thaliana with 44 samples.

Results

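The comparison described here sets sw:cbf123, a triple cbf mutant of the Swedish (SW) ecotype of Arabidopsis thaliana, against SW itself after 24 h in the cold. Its members are all genes that reached at least 1 FPKM (the count of sequenced fragments on a gene, scaled to its transcript length and to the depth of the library) in sw:cbf123 or in SW at that time, which kept 18359 of the 33557 genes in the table. The sw:cbf123 plants carry CRISPR/Cas9 edits in CBF1, CBF2 and CBF3, made with 3 guides delivered in one vector. The inserted DNA was crossed out against SW and plants from the F2 generation were used, and the alignments give 1 edited allele of each gene. Both sw:cbf123 and SW plants were grown on soil at 22°C under a 12-h photoperiod for 23 days, moved to 4°C and weaker light for 24 h, and collected at ZT4 (4 h after dawn) as the entire aerial part. Also used were sw:cbf123 and SW grown in the warm (22°C) or kept for 2 weeks at 4°C, the SW mutants sw:cbf23 and sw:cbf2 after 24 h in the cold, sw:cbf2 in the warm, and, in the Italian (IT) background, the line labelled it8 and IT after 24 h in the cold and IT in the warm. The labels used here give it8 no genotype beyond its ecotype. The study's triple cbf mutant of IT is it:cbf123, and its supplementary charts label alleles taken from that line IT8. The reductions of COR15A and GolS3 that the study lists for it:cbf123 match those of it8 over IT. For these reasons it8 is read here as that mutant. IT itself carries a CBF2 allele that does not work. Each group had 2 libraries, but the deposited value is 1 pooled FPKM per group, so no spread between replicates can be set on any difference and no p-value is given. Throughout, a gene is called lower or higher in sw:cbf123 when its log2 ratio over SW, with 0.5 FPKM added to both values, is at least 1 in size, which is a 2-fold difference.

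CBF1, CBF2 and CBF3 (also called DREB1b, DREB1c and DREB1a) are AP2/ERF transcription factors encoded by neighbouring genes on chromosome 4. Their transcripts accumulate within hours of a drop in temperature, and the proteins bind the CRT/DRE element, whose core is CCGAC, in the promoters of the genes known as the CBF regulon. Regulon members include dehydrins and other COR and LEA proteins that protect membranes and proteins during freezing, and enzymes that make raffinose and other protective sugars. Cold also represses many genes, among them genes for light harvesting, water channels and cell expansion, and part of the response to cold runs through other factors.

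The edits define the mutant, so they are shown first, as stretches of about 60 bases of the coding strand around each change, taken from the study's alignments. Bases that SW has and sw:cbf123 lacks are in capitals in the SW sequence of CBF1 and CBF2, and the base that sw:cbf123 has in addition is in capitals in its CBF3 sequence. In each partner sequence, the capitals are the bases on either side of the change.
CBF1, sw:cbf123: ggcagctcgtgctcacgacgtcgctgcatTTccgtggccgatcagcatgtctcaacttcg
CBF1, SW: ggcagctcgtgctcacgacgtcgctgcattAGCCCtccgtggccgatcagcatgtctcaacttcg
CBF2, sw:cbf123: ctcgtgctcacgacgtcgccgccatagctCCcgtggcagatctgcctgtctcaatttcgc
CBF2, SW: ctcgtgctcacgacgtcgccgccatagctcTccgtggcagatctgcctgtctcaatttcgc
CBF3, sw:cbf123: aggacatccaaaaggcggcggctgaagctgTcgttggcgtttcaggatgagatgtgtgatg
CBF3, SW: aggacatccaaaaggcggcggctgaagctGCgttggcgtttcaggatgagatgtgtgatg
CBF1 (AT4G25490, chromosome 4, 13021780 to 13022996 in TAIR10.1) lacks 5 bases in sw:cbf123 from coding base 276, and the reading frame then ends after 102 codons, against 213 codons in SW. CBF2 (AT4G25470, chromosome 4, 13015250 to 13016235) lacks 1 base at coding base 290 and the frame ends after 132 codons, against 216 in SW. CBF3 (AT4G25480, chromosome 4, 13018010 to 13019400) has 1 base more in the alignment, at coding base 395, and the frame ends after 137 codons, against 216 in SW. The study's text calls the CBF3 edit a deletion, and the alignment is followed here. No other base differed between sw:cbf123 and SW in the 3 coding regions.

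The edited transcripts were not lower in the mutant. CBF1 stood at 12.96 FPKM in sw:cbf123 and 8.2 FPKM in SW, CBF2 at 108 and 35.98 FPKM, and CBF3 at 144 and 53.2 FPKM, so that CBF2 and CBF3 were called higher (log2 1.57 and 1.43). The FPKM of an edited gene does not report its protein, and the 3 genes are similar enough in sequence that the counting could split reads between them. MYB15, a repressor of CBF genes, was at 0.263 FPKM in sw:cbf123 and 2.33 FPKM in SW, and ICE1, a basic helix-loop-helix activator of CBF3, at 21.2 and 7.39 FPKM. The other 11 of the 13 regulators of CBF genes that were listed lay within 2-fold.

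Of the 18359 genes kept, 1022 (5.57%) were lower in sw:cbf123 at 24 h and 967 (5.27%) were higher, and the median log2 ratio was 0.10. Median-of-ratios scaling of the columns, which brought that median to 0.01, gave 1212 lower and 753 higher, so that the share of called genes that were lower was 61.7%, against 51.4% as deposited. A call in this table can come from a gene at 0 in one column: 50 of the lower and 55 of the higher genes were listed at 0 in one of the pair. In these files an exact 0 need not mean an absent transcript, since RBCS1A, a Rubisco small subunit gene, is listed at 0 in sw:cbf123 at 2 weeks, against 29838 FPKM in SW. Most called genes code for proteins and lie above 0 in both columns, 928 of the lower (90.8%) and 857 of the higher (88.6%). Here, as in any bulk sample, a lower level in each cell and fewer cells of a type cannot be told apart.

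SW differed from each of its mutants by more genes than sw:cbf123 did from the other mutants at 24 h. In sw:cbf2, in which CBF1 and CBF3 are intact, 583 genes (3.18%) were lower than in SW and 622 (3.39%) higher. In sw:cbf23 the counts were 414 (2.24%) and 590 (3.2%). The name sw:cbf23 implies an intact CBF1, but the study does not describe the alleles of that line. Set directly against sw:cbf2, sw:cbf123 had 255 genes lower (1.41%) and 183 higher (1.01%), and against sw:cbf23 it had 383 lower (2.09%) and 117 higher (0.639%). These comparisons share columns with sw:cbf123 over SW, so their values are only set side by side. Of the 1022 genes lower than in SW, 110 were lower than in sw:cbf2 and sw:cbf23 too, and 707 (69.2%) were called against SW alone. Of the 967 higher, 44 were higher against all 3 references and 813 (84.1%) against SW alone.

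The CBF regulon was lower as a group in sw:cbf123. Of the 136 genes of the CBF regulon defined earlier in the Ws-2 accession, all passed the filter, 54 were lower and 1 was higher, and 119 had a ratio below 0. Their median log2 ratio was -0.76, against 0.10 over all genes. Of the 319 genes of the Col-0 regulon in the list used here, which is slightly shorter than the full regulon and was chosen in other libraries, 286 were kept, 137 lower and 5 higher, with a median of -0.97. The same Ws-2 genes had medians of -0.25 in sw:cbf23 over SW and -0.17 in sw:cbf2 over SW, and of -0.50 and -0.64 in sw:cbf123 over sw:cbf23 and over sw:cbf2.

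Dehydrins and their kin varied widely. LTI30, a dehydrin, was at 676 FPKM in sw:cbf123, 3652 FPKM in sw:cbf23, 4431 FPKM in sw:cbf2 and 5855 FPKM in SW (log2 -3.11 over SW). KIN1, a small hydrophilic COR protein, was at 80.96 FPKM in sw:cbf123, 378 in sw:cbf23, 583 in sw:cbf2 and 314 in SW (log2 -1.95). Both were lower in the triple mutant than in each of the other 3 lines. COR15A, a chloroplast LEA protein that stabilizes membranes, stood at 5671 FPKM in sw:cbf123, 9834 in sw:cbf23, 11550.5 in sw:cbf2 and 12251 in SW (log2 -1.11, or -0.97 with quantile normalization). COR413IM1, a membrane protein of the chloroplast, was at 213 FPKM in sw:cbf123 and 622 FPKM in SW (log2 -1.55). RD29B, which responds to drought and ABA, was at 6.77 FPKM in sw:cbf123 and 45.7 FPKM in SW (log2 -2.67). The dehydrin ERD10, COR413-PM1, RCI2B, HVA22D and HVA22E completed the 10 genes of this list that were lower, out of 21 kept, and none was higher. With quantile normalization, 7 of the 21 were lower.

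Other members of the list were within 2-fold of their SW levels. KIN2 was at 6689.8 FPKM in sw:cbf123 and 6807 FPKM in SW, although KIN1 and KIN2 are close copies whose reads the counting could split. RD29A, the gene through which the CRT/DRE element is best known, was at 1258 FPKM in sw:cbf123 and 1654 FPKM in SW (log2 -0.39), with 2627 FPKM in sw:cbf23 and 2790.0 FPKM in sw:cbf2. KIN2 was at 9223 FPKM in sw:cbf23 and 10375 FPKM in sw:cbf2, so for both genes the other mutants were above sw:cbf123 and SW alike. RD29A was more than 2-fold lower in sw:cbf123 than in either sw:cbf23 or sw:cbf2. COR47 was at 3667 FPKM in sw:cbf123 and 6462 FPKM in SW (log2 -0.82), short of 2-fold. The dehydrin ERD14, with COR413-PM2, COR413IM2, RCI2A and RAB18, had ratios above 0. The median over the 21 genes was -0.82, against -0.03 for the same genes in sw:cbf23 over SW and 0.09 in sw:cbf2 over SW.

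Most of these genes were still cold-induced in sw:cbf123. COR15A was at 5671 FPKM after 24 h and 189.6 FPKM in the warm in sw:cbf123, and at 12251 FPKM after 24 h and 83.6 FPKM in the warm in SW. LTI30 was at 676 FPKM after 24 h and 3.69 FPKM in the warm in sw:cbf123, and at 5855 and 6.07 FPKM in SW. By the same 2-fold rule, 2261 genes (12.1%) were higher and 2141 (11.5%) lower after 24 h than in the warm in sw:cbf123, and 2740 (14.6%) were higher and 2766 (14.7%) lower in SW. Among the 136 Ws-2 regulon genes, 95 were cold-induced in sw:cbf123 and 119 in SW, with median cold responses of 1.58 and 2.55 on the log2 scale. Of the 22 dehydrin, COR and LEA genes, 16 were cold-induced in sw:cbf123 and 20 in SW, with medians of 4.68 and 5.64.

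**Figure D1:**
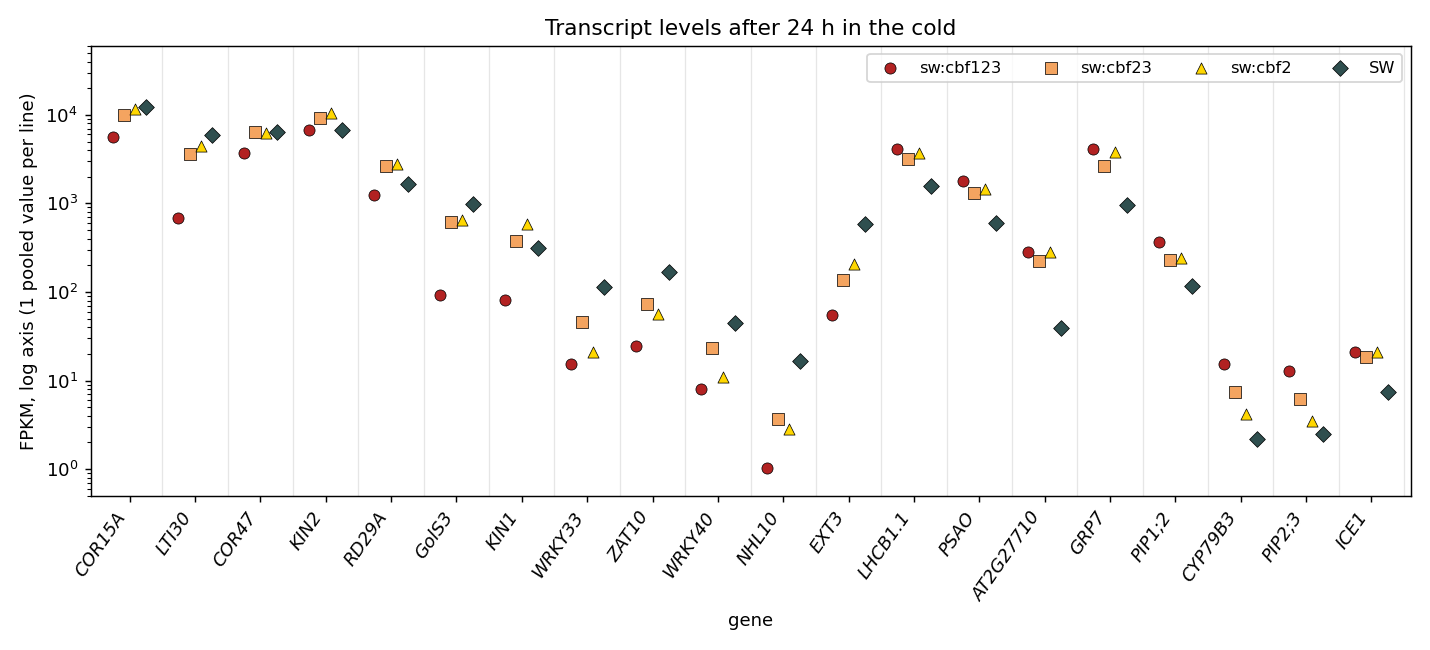
FPKM on a log axis of 20 genes after 24 h in the cold, each gene with sw:cbf123 (circle), sw:cbf23 (square), sw:cbf2 (triangle) and SW (diamond), 1 pooled value per line and no error bar. LTI30, GolS3 and KIN1 sit lowest in sw:cbf123 with the other 3 lines close together, while LHCB1.1, PSAO, AT2G27710 and GRP7 sit lowest in SW with the 3 mutants close together.

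Enzymes of protective sugars were lower at a few steps only. GolS3, a galactinol synthase that supplies the raffinose pathway, was at 92.6 FPKM in sw:cbf123, 609 in sw:cbf23, 658 in sw:cbf2 and 984 in SW (log2 -3.40). GolS1 was at 69.8 FPKM in sw:cbf123 and 244 FPKM in SW, and ESL1, a sugar transporter of the vacuole, at 10.7 and 32.3 FPKM. These were the 3 of 18 listed sugar, proline and starch genes that were lower, and none was higher. P5CS1, which makes proline, stood at 351 FPKM in sw:cbf123 and 347 FPKM in SW, and BAM3, a plastid beta-amylase, at 3337 and 2623 FPKM.

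The genes lower in sw:cbf123 against all 3 references also held LEA4-5, FMO GS-OX4 and RD26. LEA4-5, a LEA protein, was at 4.33 FPKM in sw:cbf123, 34.3 in sw:cbf23, 36.4 in sw:cbf2 and 34.3 in SW. FMO GS-OX4, a flavin monooxygenase of glucosinolate metabolism, was at 28.2, 139, 131 and 243 FPKM in the same order. RD26, a NAC transcription factor of the drought response, was at 27.4, 70.6, 75.99 and 97.9 FPKM in that order of lines. That the triple mutant was the low line follows from how this set was defined. On the log2 scale, the other mutants were nearer to SW in each case. These 3 genes were chosen after their values were seen.

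Promoters showed where the genes lower against all 3 references differ from those lower against SW alone. The CBF site was searched as ACCGAC or GCCGAC on either strand in the 250 bases before the annotated gene start of protein-coding genes, in the Col-0 reference sequence, since no SW genome was used. It was present in 37 of 101 promoters (36.6%) of genes lower against all 3 references, in 52 of 666 (7.81%) of those lower against SW alone, in 114 of 957 (11.9%) of all lower genes, in 50 of 879 (5.69%) of the higher genes, and in 1451 of 17724 (8.19%) of all genes kept. The core of the ABA response element, ACGTG, was in 44.6% of the genes lower against all 3 references, 26.1% of those lower against SW alone and 23.5% of all kept. The W box, TTGACC or TTGACT, to which WRKY factors bind, was in 32.7%, 36% and 28% of these sets. In all 26689 promoters, 7.12% held the CBF site, 23.1% the ABA element core and 28.5% the W box. The CAMTA core, CGCG, and the evening element, AAAATATCT, were in 14.1% and 3.13% of the lower genes, 11.3% and 3.41% of the higher and 10.9% and 2.67% of all kept.

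The promoters of 3 regulon genes with different ratios are printed as the 250 bases before the gene start with the CBF sites in capitals, 5′ to 3′ on the gene's strand. They are LTI30 (chr3:18940393-18940642, plus strand), COR15A (chr2:17712331-17712580, minus strand) and RD29A (chr5:21240467-21240716, plus strand), all from RefSeq's TAIR10.1.
LTI30: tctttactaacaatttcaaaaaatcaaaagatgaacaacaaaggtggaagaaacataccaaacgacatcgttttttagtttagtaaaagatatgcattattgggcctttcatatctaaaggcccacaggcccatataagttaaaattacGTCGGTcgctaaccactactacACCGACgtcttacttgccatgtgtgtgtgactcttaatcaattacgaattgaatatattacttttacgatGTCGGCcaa
COR15A: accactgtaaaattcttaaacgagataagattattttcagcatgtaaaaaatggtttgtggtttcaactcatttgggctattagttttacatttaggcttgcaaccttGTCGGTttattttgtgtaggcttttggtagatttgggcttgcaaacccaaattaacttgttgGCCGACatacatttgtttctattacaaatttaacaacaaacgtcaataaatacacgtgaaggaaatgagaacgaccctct
RD29A: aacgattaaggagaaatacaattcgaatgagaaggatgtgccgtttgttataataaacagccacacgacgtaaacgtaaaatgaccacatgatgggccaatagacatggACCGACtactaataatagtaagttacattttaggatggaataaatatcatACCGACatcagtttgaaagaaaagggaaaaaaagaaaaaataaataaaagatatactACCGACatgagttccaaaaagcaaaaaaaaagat
LTI30 and RD29A each held 3 sites and COR15A 2, while the log2 ratios over SW were -3.11, -0.39 and -1.11. The number of sites thus did not order these ratios over SW. Over sw:cbf2 and over sw:cbf23, LTI30 and RD29A both had more negative ratios than COR15A, so the order depended on the reference. KIN1, KIN2 and COR413IM1 had no site in this window and all 3 had the ABA element core. Within the Ws-2 regulon, 23 of the 54 lower genes (42.6%) and 29 of the 82 others (35.4%) had a CBF site.

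**Figure D2:**
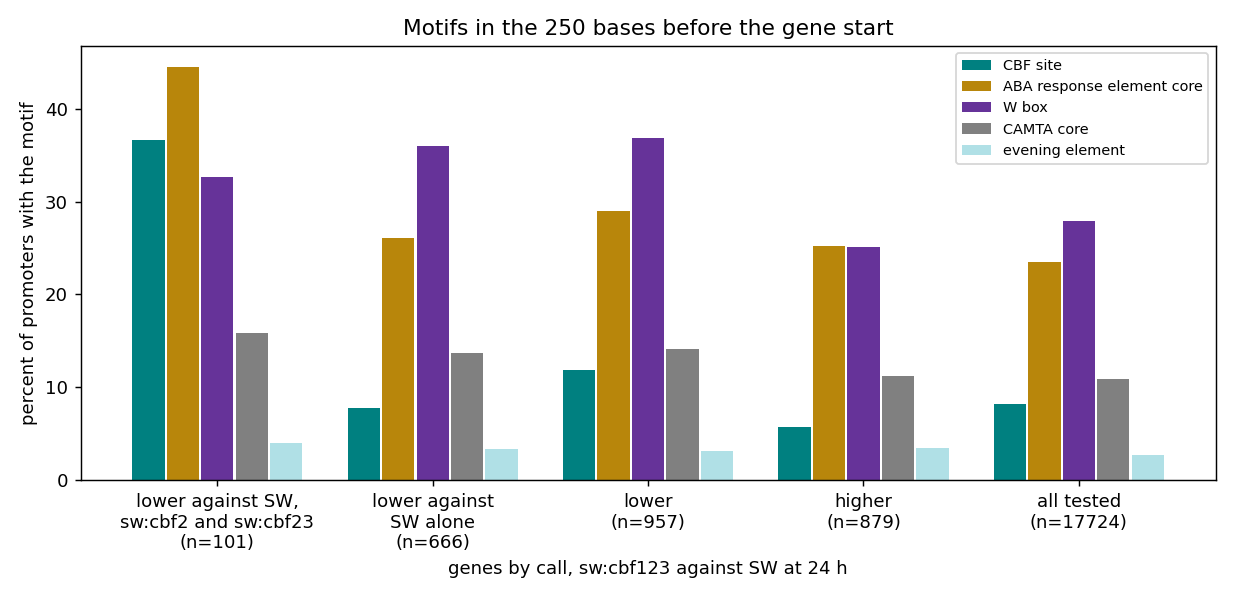
Percent of promoters (250 bases before the gene start) that hold each of 5 motifs on either strand, for genes lower in sw:cbf123 at 24 h against SW, sw:cbf2 and sw:cbf23, lower against SW alone, all lower, all higher, and all kept. The CBF site is in 36.6% of the first set and in 7.81% of the second, and the W box is in 36% of the second.

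Genes of touch, wounding and chitin had negative medians in all 3 SW mutants. Of 29 genes known to respond to touch, wounding or chitin, 26 were kept and 19 were lower in sw:cbf123, with none higher and a median log2 ratio of -1.50. WRKY33, a WRKY factor of defence against fungi, was at 15.2 FPKM in sw:cbf123, 46.3 in sw:cbf23, 20.9 in sw:cbf2 and 113 in SW (log2 -2.86). WRKY40 was at 7.98, 23.2, 11.04 and 44.7 FPKM in the same order. NHL10, a membrane protein induced by pathogens, was at 1.02, 3.63, 2.86 and 16.7 FPKM in that order. SW was the high line for all 3, and sw:cbf2 lay nearer to sw:cbf123 than to SW. The median of the list was -1.20 in sw:cbf2 over SW, -0.59 in sw:cbf23 over SW, -0.24 in sw:cbf123 over sw:cbf2 and -0.95 in sw:cbf123 over sw:cbf23, and 3 of its genes were lower against all 3 references.

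ZAT10, a zinc finger factor induced early in the cold, was at 24.3 FPKM in sw:cbf123, 73.6 in sw:cbf23, 56.5 in sw:cbf2 and 169.6 in SW (log2 -2.78). The other 4 early cold factors listed, ZAT12 and HSFC1 among them, lay within 2-fold. TCH4, a xyloglucan endotransglucosylase induced by touch, was at 3.25 FPKM in sw:cbf123 and 18.3 FPKM in SW, whereas CML24, the touch gene also known as TCH2, was at 16.6 and 14.5 FPKM. The W box was in the promoters of 15 of the 26 kept genes of this list (57.7%). The WRKY33 promoter is printed as an example (chr2:16107985-16108234, plus strand, TAIR10.1 from RefSeq), with its 2 W boxes in capitals, both read on the other strand.
WRKY33: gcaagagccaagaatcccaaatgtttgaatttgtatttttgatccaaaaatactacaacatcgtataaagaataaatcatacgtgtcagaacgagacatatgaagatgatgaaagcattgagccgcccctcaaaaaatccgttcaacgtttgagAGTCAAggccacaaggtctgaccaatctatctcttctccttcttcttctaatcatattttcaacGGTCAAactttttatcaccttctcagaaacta

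Salicylic acid genes were lower in sw:cbf123 as well. All 19 listed were kept, all 19 had a ratio below 0 and 11 were lower, with a median of -1.07. The list median was -0.50 in sw:cbf2 over SW and -0.57 in sw:cbf23 over SW. It was -0.65 in sw:cbf123 over sw:cbf2 and -0.44 over sw:cbf23, so sw:cbf2 lay less close to sw:cbf123 than in the touch list. CBP60G, an activator of salicylic acid synthesis, was at 9.59 FPKM in sw:cbf123 and 63.1 FPKM in SW, its partner SARD1 at 14.4 and 57.5 FPKM, and ICS1, the isochorismate synthase, at 8.16 and 19.5 FPKM. FMO1, needed for systemic resistance, was at 0.212 FPKM in sw:cbf123 and 5.09 FPKM in SW. The marker PR1 was at 558 FPKM in sw:cbf123 and 929 FPKM in SW, within 2-fold, with 1802 FPKM in sw:cbf2. In the warm, 8 of these 19 and 0 of the touch genes were lower in sw:cbf123, against 2.24% of all genes kept. The warm medians of the 2 lists were close, at -0.54 and -0.51, against 0.05 over all genes. The W box was in 15.8% of the promoters of the salicylic acid list.

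Jasmonate genes went both ways. JAZ7, a repressor of jasmonate signalling, was at 0.24 FPKM in sw:cbf123, 4.24 in sw:cbf23, 2.3 in sw:cbf2 and 14.997 in SW (log2 -4.39). JAZ1 was at 122 FPKM in sw:cbf123 and 346 FPKM in SW, and JAZ8 was listed at 0 in sw:cbf123 and at 1.31 FPKM in SW. The storage protein gene VSP2, a late target of the hormone, was at 8.1 FPKM in sw:cbf123 and 3.04 FPKM in SW, and AOS, the allene oxide synthase, at 161 and 77.9 FPKM, a call that both scalings ended (log2 0.95 with median-of-ratios scaling and 0.96 with quantile normalization). In all, 5 of 24 were lower (LOX4, JAZ1, JAZ5, JAZ7 and JAZ8) and 3 higher (AOS, VSP2 and PDF1.2), with a median of -0.10.

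**Figure D3:**
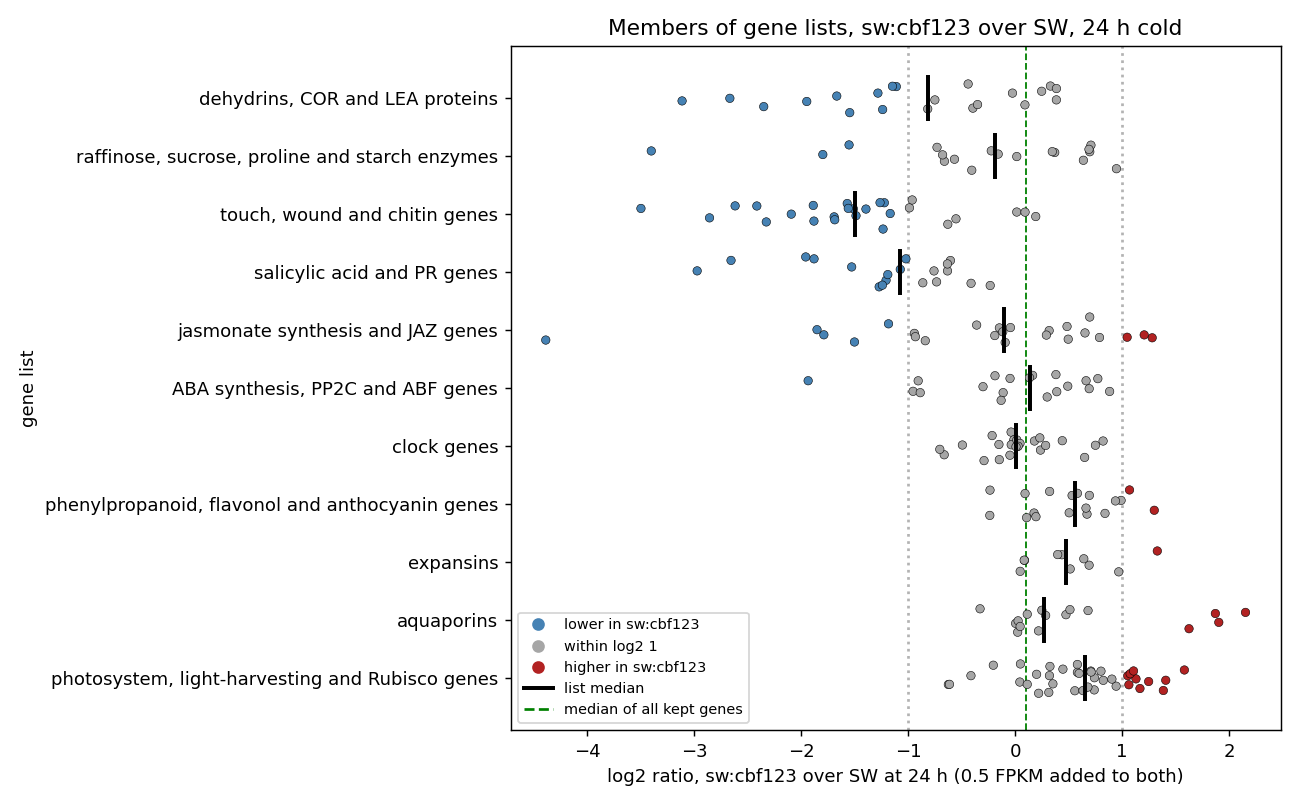
Log2 ratio of sw:cbf123 over SW at 24 h (0.5 FPKM added to both) for every kept member of 11 gene lists, with points coloured by call, the list median as a black bar and the median of all kept genes, 0.10, as a dashed line. The touch and salicylic acid lists lie almost wholly below 0, the clock list around 0, and the photosystem list mostly above 0.

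Genes of cell wall and defence proteins were among those with the most negative ratios. EXT3, an extensin, was at 54.7 FPKM in sw:cbf123, 136 in sw:cbf23, 209 in sw:cbf2 and 588 in SW (log2 -3.41), and EXT4 at 38.5, 93.6, 102 and 231 FPKM in the same order. AT3G22142, annotated as a lipid-transfer protein, was at 34.8 FPKM in sw:cbf123 and 423 FPKM in SW, and the similar neighbours AT4G22485 and AT4G22505 were at 13.6 and 15.9 FPKM in sw:cbf123, against 206 and 183 FPKM in SW. AT2G43620, of the chitinase family, was at 6.19 FPKM in sw:cbf123 and 84.3 FPKM in SW. The polyamine oxidase gene PAO2 was at 0.525 FPKM in sw:cbf123 and 13.96 FPKM in SW. All of these were lower in sw:cbf123 against all 3 references. With a trend on the G and C balance of transcripts taken out, the log2 ratios of EXT3, EXT4, AT3G22142 and AT4G22505 over SW were -0.94, -0.81, -0.997 and -0.94, and these 4 were no longer called. By annotation words, chosen after the values were seen, 17 of 43 kept WRKY genes, 16 of 36 arabinogalactan protein genes and 6 of 22 extensin genes were lower in sw:cbf123. Over all genes kept, 5.57% were lower. In the warm, where 2.24% of all genes kept were lower, the same families had 5, 16 and 5 genes lower.

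The rule fixed for naming genes, the 15 most negative and 15 most positive ratios among genes at 5 FPKM or more in the higher column and called with 0.1, 0.5 and 1 FPKM added, picked mostly non-coding and plastid genes. Of the 15 lower, 14 were listed at 0 in sw:cbf123, and JAZ7 was the other one. Of the 15 higher, 14 were listed at 0 in SW. They are small nucleolar RNAs (AT3G50825 and AT2G20723 among the lower, AT1G75166 and AT4G02555 among the higher), microRNA precursors (MIR825 lower, MIR168a higher), and plastid genes, with a few uncharacterized protein genes. Of the 1425 genes that met the rule, 1316 code for proteins and lie above 0 in both columns, and the genes named in the rest of the text are from these or from the lists. That restriction was added after the values were seen.

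Genes of the light reactions and Rubisco were the fixed list with the most genes higher. Of 38 photosystem, light-harvesting and Rubisco genes, 10 were higher and none lower, and 34 had a ratio above 0, with a median of 0.66. With median-of-ratios scaling, 7 were higher. LHCB1.1, a chlorophyll-binding antenna protein of photosystem II, was at 4129.9 FPKM in sw:cbf123, 3176 in sw:cbf23, 3707 in sw:cbf2 and 1580.4 in SW (log2 1.39). PSAO, a photosystem I subunit, was at 1786, 1303, 1459.8 and 596 FPKM in the same order (log2 1.58). RCA, Rubisco activase, was at 1727, 1311, 1491 and 802 FPKM. SW was the low line for each, and none of the 38 was called in sw:cbf123 over sw:cbf2 or over sw:cbf23. Subunits within photosystem I differed, since PSAD1 was at 1246 FPKM in sw:cbf123 and 1921 FPKM in SW, and PSAG at 2849 and 4361 FPKM. The LHCB1 genes are near copies, and their single values are uncertain where reads could be split.

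Most of these genes were lower in the cold than in the warm in both lines. PSAO was at 1786 FPKM after 24 h and 5223 FPKM in the warm in sw:cbf123, and at 596 and 2678 FPKM in SW, while LHCB1.1, at 4129.9 and 4719.6 FPKM in sw:cbf123, was hardly repressed in the mutant. By the 2-fold rule, 23 of the 38 were cold-repressed in sw:cbf123 and 29 in SW, with median cold responses of -1.27 and -1.56.

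Aquaporins of the plasma membrane were higher in part. PIP2;3 was at 12.8 FPKM in sw:cbf123, 6.15 in sw:cbf23, 3.5 in sw:cbf2 and 2.5 in SW (log2 2.15), and was 1 of the 44 genes higher against all 3 references. PIP1;1, PIP1;2 and PIP2;2 were higher than in SW too, at 55.4, 362 and 20.7 FPKM in sw:cbf123, against 14.8, 117 and 5.16 FPKM in SW. The other 12 of 16 aquaporins lay within 2-fold, among them TIP1;1 at 84.03 FPKM in sw:cbf123 and 72.1 FPKM in SW. TIP2;2, a tonoplast aquaporin that was not on the list, was at 9.39 FPKM in sw:cbf123 and 2.87 FPKM in SW, and was also higher against all 3.

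Few genes of the growth and pigment lists were called, although most had ratios above 0. EXPA1, an expansin, was the 1 of 10 kept expansins that was higher, at 17.7 FPKM in sw:cbf123 and 6.74 FPKM in SW. F3H, a flavanone hydroxylase, and MYB111, a flavonol regulator, were higher among 18 kept phenylpropanoid and flavonoid genes, at 146 and 51.1 FPKM in sw:cbf123, against 69.1 and 20.4 FPKM in SW. F3H lost its call with median-of-ratios scaling (log2 0.97) and quantile normalization (0.98), and both lost it with a trend on transcript base composition taken out (0.81 and 0.88). CHS, the chalcone synthase that begins the flavonoid pathway, was at 686 FPKM in sw:cbf123 and 345 FPKM in SW, just short of 2-fold. Median ratios were 0.48 for the expansins and 0.56 for the phenylpropanoid list. All 10 kept expansins and 16 of the 18 phenylpropanoid genes had ratios above 0, as did 10694 of all 18359 genes kept. The shares called higher were 10% and 11.1%, against 5.27% over all genes kept.

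Families of ribosomal and RNA-binding proteins, picked by annotation words after the values were seen, were higher to different degrees. The 9 kept genes annotated as acidic ribosomal proteins, which form the stalk of the large subunit, were all higher in sw:cbf123, with a median of 1.84, and had medians of 1.60 in sw:cbf23 over SW and 1.60 in sw:cbf2 over SW. AT2G27710 was at 284 FPKM in sw:cbf123, 226 in sw:cbf23, 279 in sw:cbf2 and 39.6 in SW, and its neighbour AT2G27720, a near copy, at 308, 243, 278 and 43.9 FPKM. Over all 298 kept genes whose annotated product holds the words ribosomal protein and names no organelle, 66 were higher (22.1%) and 2 lower. Of these 298, 47 had a ratio below 0, and the median was 0.56. Among all genes kept, 5.27% were higher. GRP7, a glycine-rich RNA-binding protein of the clock and the cold response, was at 4146 FPKM in sw:cbf123, 2628 in sw:cbf23, 3788 in sw:cbf2 and 960.4 in SW. All 7 kept genes found by the words glycine-rich RNA-binding, or by the circadian rhythm wording of GRP7's annotation, were higher. Genes whose product names an organelle were left out of this set too. No acidic ribosomal protein gene was higher in sw:cbf123 over sw:cbf2, where their median was 0.17. AT5G20190, a tetratricopeptide repeat protein, was at 352 FPKM in sw:cbf123, 226 in sw:cbf23, 206 in sw:cbf2 and 40.8 in SW, with the 3 mutants again on one side.

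Transcript base composition moved with the ratio. Over 13699 genes at 5 FPKM or more, the G and C balance of the longest transcript (G minus C over their sum) had a Spearman correlation of 0.37 with the log2 ratio of sw:cbf123 over SW, across genes, which are not independent. From the fifth of genes richest in C to the fifth richest in G, the median log2 ratio was -0.32, 0.04, 0.15, 0.24 and 0.33. GC content and transcript length had correlations of 0.03 and -0.13. The same balance had a correlation of 0.41 in sw:cbf23 over SW, 0.38 in sw:cbf2 over SW, 0.16 in sw:cbf123 over sw:cbf2, 0.39 in sw:cbf123 over SW in the warm and 0.23 in it8 over IT at 24 h. The 7 glycine-rich RNA-binding genes had a median balance of 0.18 and the 9 acidic ribosomal genes 0.11, against 0.06 over all kept genes, -0.01 in the touch list and -0.02 in the photosystem list. Arabinogalactan, lipid-transfer and extensin genes, families with many genes lower, had median balances of -0.18, -0.12 and -0.11. With a lowess trend on this balance taken out, 900 genes were lower and 636 higher, and the touch, salicylic acid and photosystem lists had 20 lower, 9 lower and 11 higher. The dehydrin, COR and LEA list then had 8 lower. The part of base composition in any single ratio was not tested.

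**Figure D4:**
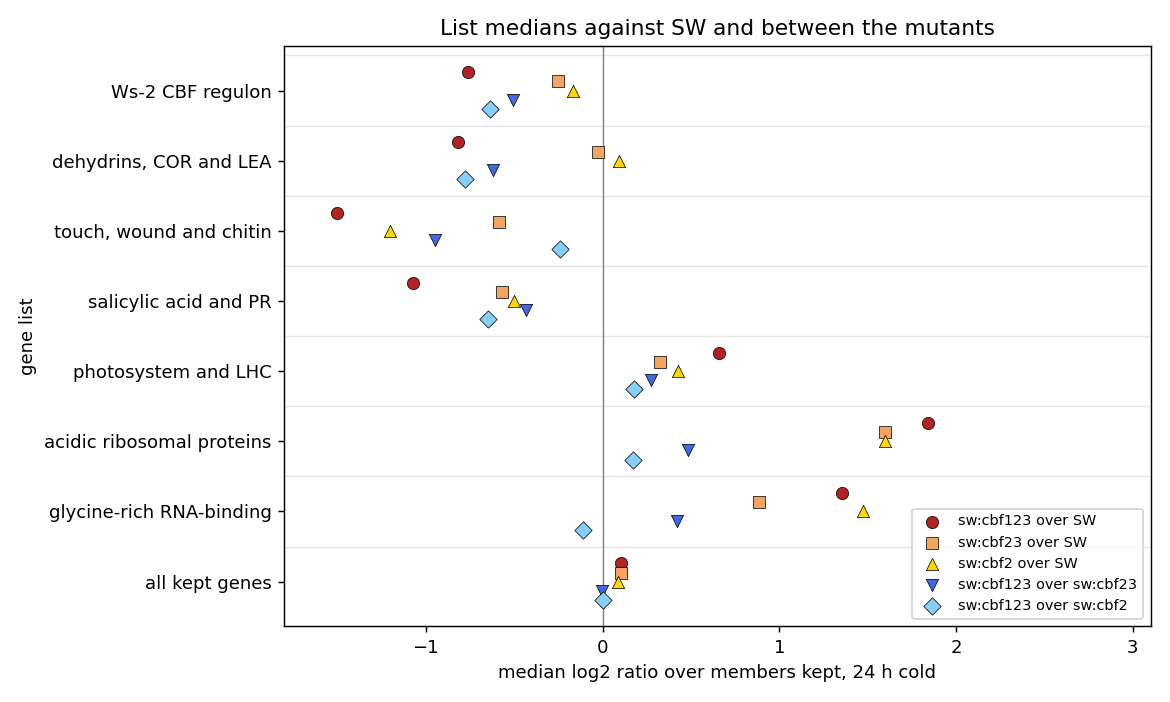
Median log2 ratio at 24 h over the kept members of 7 lists and over all kept genes, for sw:cbf123, sw:cbf23 and sw:cbf2 over SW and for sw:cbf123 over sw:cbf23 and sw:cbf2. The comparisons share columns. The dehydrin list is near 0 in sw:cbf2 over SW and at -0.78 in sw:cbf123 over sw:cbf2, whereas the acidic ribosomal list is at 1.6 in sw:cbf2 over SW and 0.17 in sw:cbf123 over sw:cbf2.

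Genes were then sorted by their response to cold in lines that share no column with the comparison. In sw:cbf2, 2488 genes (13.3%) were higher and 2273 (12.1%) lower after 24 h than in the warm. Of the 2488 cold-induced genes, 2445 were kept, 323 of them (13.2%) lower in sw:cbf123 compared with SW and 119 (4.87%) higher. Of the 2273 cold-repressed genes, 1924 were kept, 121 of them (6.29%) lower and 216 (11.2%) higher. The shares grew with the size of the response: 32.7% of 248 genes induced by more than log2 3 in sw:cbf2 were lower in sw:cbf123, and 27.2% of 92 genes repressed by more than log2 3 were higher, against 3.31% lower and 4.46% higher among 13666 genes that moved by less than log2 1. The opposite calls were more frequent at the ends too, with 15.2% of the most repressed genes lower and 7.66% of the most induced genes higher. Binned by IT these were 13.0% and 11.4%. In IT, where 1714 genes (9.21%) were higher and 2038 (10.9%) lower in the cold, 307 of the 1594 induced genes kept (19.3%) were lower in sw:cbf123 and 218 of the 1669 repressed genes kept (13.1%) were higher. The opposite calls numbered 81 induced genes higher and 69 repressed genes lower.

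**Figure D5:**
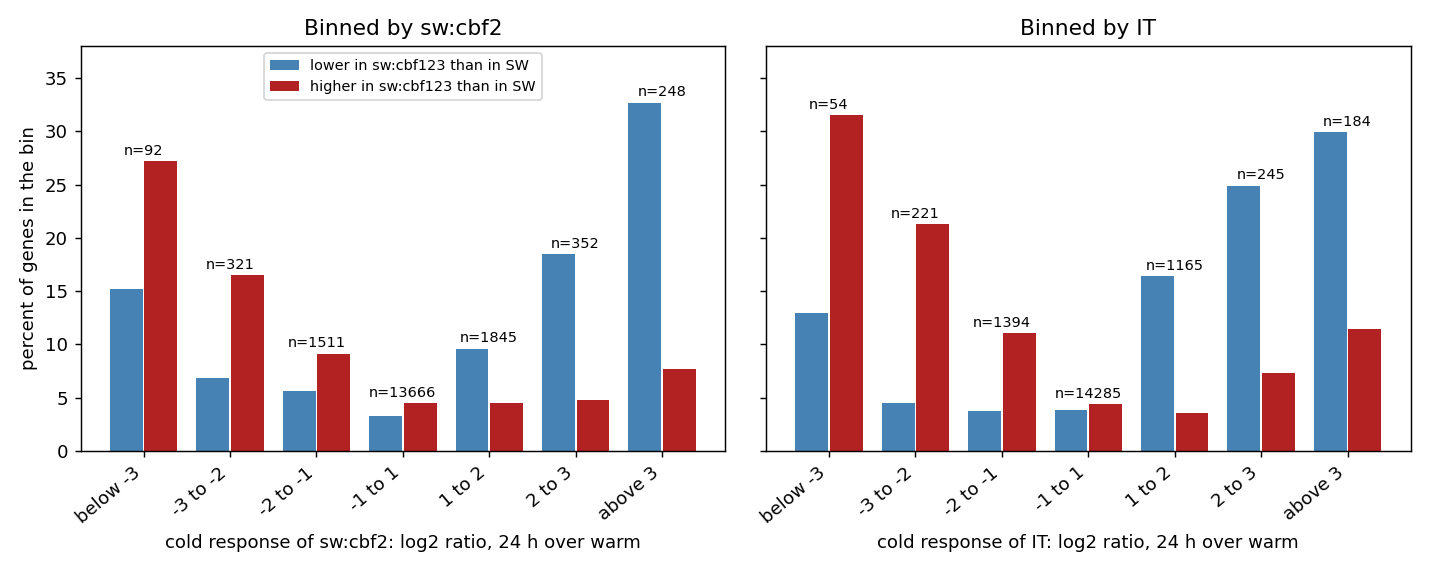
Percent of kept genes that were lower (left bar) or higher (right bar) in sw:cbf123 compared with SW at 24 h, by the log2 response to 24 h of cold in sw:cbf2 (left panel) and in IT (right panel), with the number of genes in each bin. The lower share reaches 32.7% and 29.9% in the most induced bins and the higher share 27.2% and 31.5% in the most repressed bins.

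Cold-repressed genes that were higher in sw:cbf123 came from several pathways. CYP79B3, which makes the indole-3-acetaldoxime used for indole glucosinolates and auxin, was at 15.3 FPKM in sw:cbf123, 7.49 in sw:cbf23, 4.19 in sw:cbf2 and 2.2 in SW. ARGAH2, an arginase induced by jasmonate, was at 311, 183, 144 and 69.2 FPKM in the same order, and AT1G52000, a mannose-binding lectin, at 59.2, 27.1, 12.3 and 11.4 FPKM. For these the levels ordered the lines from sw:cbf123 down to SW. BAM5, a cytosolic beta-amylase, was at 9.08, 3.12, 2.43 and 2.1 FPKM and was higher against all 3. In the warm BAM5 stood at 32.8 FPKM in sw:cbf123 and 14.02 FPKM in SW, so the mutant was above SW in both conditions. BAM5 and TIP2;2 were chosen after their values were seen. With PIP2;3, AT3G22235, AT1G11700, AT2G43530 and AT2G35760, the other 3 make up the 8 most positive ratios of this class among protein-coding genes above 0 in both columns that met the naming rule, from 2.15 to 2.80.

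Cold-repressed genes that were lower in sw:cbf123 were fewer. TCH4 was among them, and so were KTI1, a Kunitz trypsin inhibitor, at 0.442 FPKM in sw:cbf123 and 5.77 FPKM in SW, and AT5G46780, a VQ motif protein, at 6.37 and 43.9 FPKM. MAPR2, a membrane-associated progesterone binding protein, was at 1.49 FPKM in sw:cbf123 and 12.2 FPKM in SW at 24 h, at 0.0217 and 20.9 FPKM in the warm and at 0.0883 and 15.7 FPKM at 2 weeks. Its level in sw:cbf123 was below that in SW at all 3 times, and sw:cbf23, at 0.0139 FPKM after 24 h, was lower still. AT5G09876, AT3G22070, AT5G62998 and AT3G48346 made up the 8 most negative under the same limit. Cold-induced genes that were higher included GRP7 and the glycine-rich GRP4, the ribosomal protein gene RP1 (639.7 FPKM in sw:cbf123 and 179.8 FPKM in SW), and 2 DnaJ-domain chaperones, AT1G71000 and AT1G30280.

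Few clock, ABA and heat shock genes were called. None of 24 clock genes was called, and their ratios ran between -0.70 and 0.82 with a median of 0.01. CCA1, a morning clock factor, was at 355 FPKM in sw:cbf123 and 349 FPKM in SW. HAI1, a PP2C phosphatase of ABA signalling, at 2.02 and 9.15 FPKM, was the 1 gene lower among 19 kept ABA genes, and NCED3, which limits ABA synthesis, was at 17.5 and 33.2 FPKM. None of the 12 kept heat shock genes was called. GA2OX6, which inactivates gibberellins, and RGL3, a DELLA protein, were the 2 of 8 kept gibberellin genes that were lower, at 1.998 and 0.992 FPKM in sw:cbf123, against 6.05 and 2.97 FPKM in SW. With 1 FPKM added, RGL3 was at log2 -0.994 and lost its call. Of 10 markers of roots, seeds and flowers, 2 were kept, PYK10 at 11.7 FPKM in sw:cbf123 and 12.8 FPKM in SW, and CASP1 at 1.46 and 3.03 FPKM.

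In the warm, 410 genes (2.24%) were lower in sw:cbf123 compared with SW and 381 (2.08%) were higher. Of the genes lower at 24 h, 183 were lower in the warm as well, 17.9% of the 24-h list and 44.6% of the warm list, and 173 were higher at both, 17.9% and 45.4%. With the trend on G and C balance taken out, 64 were lower at both. EXT3, whose call at 24 h that setting ends, was at 10.7 FPKM in sw:cbf123 and 53.2 FPKM in SW in the warm, and AT2G27710 at 229.7 and 76.3 FPKM, so both differed before the cold. ICE1 was at 21.2 FPKM in sw:cbf123 and 9.81 FPKM in SW in the warm and at 20.9 and 8.02 FPKM at 2 weeks, so that sw:cbf123 was above SW at each time. Dehydrin, COR and LEA genes ran the other way in the warm, with a median of 0.55, 6 higher and none lower.

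After 2 weeks, 476 genes (2.63%) were lower and 623 (3.44%) higher, and 273 and 392 of them had the same call at 24 h, which is 57.4% and 62.9% of the 2-week lists and 26.7% and 40.5% of the 24-h lists. For KIN1, LTI30 and KIN2 the difference was wider than at 24 h. KIN1 was at 5.13 FPKM in sw:cbf123 and 559 FPKM in SW, LTI30 at 33.02 and 635 FPKM, and KIN2, within 2-fold at 24 h, at 521 and 2532 FPKM. The median of the dehydrin, COR and LEA list was -1.42 at 2 weeks, with 11 lower and 1 higher. At 24 h it was -0.82, with 10 lower and none higher. That of the Ws-2 regulon was -0.76 at both times, and that of the touch list was -0.13 at 2 weeks.

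In the Italian background, it8 over IT at 24 h had 286 genes lower (1.57%) and 147 higher (0.807%). Of the genes lower in sw:cbf123, 108 were lower in it8 as well, 10.6% of the sw:cbf123 list and 37.8% of the it8 list, and 30 were higher in both, 3.1% and 20.4%. The shared lower genes included GolS3, at 7.8 FPKM in it8 and 273 FPKM in IT, and LTI30, at 166 and 3266 FPKM. The CBF site was in 30 of 97 promoters (30.9%) of the shared lower genes, against 6.4% of the 172 promoters of genes lower in sw:cbf123 both at 24 h and in the warm. The dehydrin, COR and LEA list had a median of -1.52 in it8 over IT with 15 lower, and the Ws-2 regulon one of -0.82 with 55 lower. The touch and salicylic acid lists had medians of 0.31 and 0.35 there, with 0 lower in either, and the photosystem list one of -0.01. WRKY33 was at 186 FPKM in it8 and 128 FPKM in IT, and LHCB1.1 at 6477 and 6229.7 FPKM.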

How the data were processed

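RNA-seq was done on the entire aerial part of the plants, with 2 libraries per group. FPKM values were deposited by the authors as 1 pooled column per group, 22 columns in all, and no column was left without a group. The submitters' processing notes name TopHat2 2.1.0, Cufflinks 2.1.1 and Cuffdiff, with TAIR10 as the genome. FPKM values hold no counts, so the depth and the error of each value are unknown. The column sums ran between 880986 and 1101340 FPKM.

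Log2 ratios were taken with 0.5 FPKM added to both columns, for genes at 1 FPKM or more in either, and called at 1 or more in size, with no test. The arithmetic of the ratios was tested on simulated data, which says nothing of the error between plants. Genes were named by the rule given in the text or as members of fixed lists, and the members and lists were chosen with earlier results of these data known. Alternatives were 0.1 or 1 FPKM added, no filter, a filter at 5 FPKM, median-of-ratios scaling, quantile normalization, sw:cbf2 or sw:cbf23 as reference and, added after seeing the data, a lowess trend on the G and C balance (fraction 0.3). Gene names, promoters and transcripts came from RefSeq's TAIR10.1, which held 32813 of the 33557 identifiers. Python 3.11.15, pandas 2.3.3, SciPy 1.17.1 and statsmodels 0.14.6 were used.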

Additional observations from a re-analysis of the deposited data

Results flagged for a closer look

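Some genes were called in opposite directions in 2 comparisons of the same kind, and none of these differences was tested. Of the genes lower at 24 h in sw:cbf123, 24 were higher in the warm, and of those higher at 24 h, 9 were lower in the warm. COR15A, COR413IM1 and HVA22E, all dehydrin, COR or LEA genes lower at 24 h, had warm log2 ratios of 1.18, 1.23 and 1.01. In the warm, COR15A was at 189.6 FPKM in sw:cbf123 and 83.6 FPKM in SW, and HVA22E at 6.86 and 3.16 FPKM.

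Between the ecotypes, 14 genes lower in sw:cbf123 over SW at 24 h were higher in it8 over IT, and 21 higher in sw:cbf123 were lower in it8. ALD1, an aminotransferase of systemic resistance, was at 0.742 FPKM in sw:cbf123 and 2.5 FPKM in SW, and had a log2 ratio of 1.22 in it8 over IT.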

How the results depend on the processing

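No paired analysis was possible because each group has 1 pooled column, and for the same reason no library could be left out. With 0.1 or 1 FPKM added, no filter, a filter at 5 FPKM, median-of-ratios scaling or quantile normalization, the counts over all genes, the regulon genes that were lower, the cold classes, the shared genes and the pathway lists as a whole stayed within 1.5 times their values. Within single lists small counts moved more. ABA genes lower were 3 with median-of-ratios scaling, against 1. Phenylpropanoid genes higher were 1 with either scaling, against 2. With 1 FPKM added or a filter at 5 FPKM, gibberellin genes lower were 1, against 2, and Col-0 regulon genes higher 3, against 5. The reference line mattered more. Against sw:cbf2 and sw:cbf23, sw:cbf123 had 255 and 383 genes lower and 183 and 117 higher, 30 and 23 Ws-2 regulon genes lower, 71 and 56 Col-0 regulon genes lower, and 31 and 34 members of the pathway lists called. Genes called at 24 h and in the warm numbered 38 and 45 lower and 32 and 26 higher, and genes repressed in IT that were higher numbered 60 and 26. Against sw:cbf23 alone, 156 genes induced in sw:cbf2 were lower, 39 repressed were higher, and 70 lower genes were shared with it8. With the trend on G and C balance taken out, 636 genes were higher and 64 were lower both at 24 h and in the warm. The cause of these shifts was not tested. Of the single genes given with values, 26 lost their call over sw:cbf2, 29 over sw:cbf23, 6 with the trend taken out and at most 4 under any other setting. JAZ8 had a log2 ratio of 0 and MAPR2 one of 1.95 over sw:cbf23, and RP1 one of -0.056 over sw:cbf2. Depth is unknown, and ratios of genes near 1 FPKM are the least certain.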

Other observations

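Further families, picked by annotation words after the values were seen, lay mostly on one side. Among kept genes, 13 of 43 lipid-transfer protein genes were lower in sw:cbf123 and 1 higher, 8 of 28 cysteine-rich receptor-like kinase genes and 5 of 14 chitinase genes were lower with none higher, and 4 of 10 mannose-binding lectin genes were higher with none lower. Over all genes kept, 5.57% were lower and 5.27% higher. In it8 over IT, where 1.57% of all genes kept were lower, the lipid-transfer list had 11 genes lower, the kinase list none and the chitinase list 1.

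MAPR2, low in sw:cbf123 at each time, also varied in the Italian ecotype. It was at 16.5 FPKM in it8 and 24.6 FPKM in IT after 24 h in the cold, against 0.066 FPKM in IT in the warm.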
